A study of Mus musculus with 6 samples.

Results

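The Wnt pathway was followed here through 52 genes: 19 Wnt ligands, 10 Frizzled receptors, 2 Lrp co-receptors, 10 intracellular parts, 8 secreted inhibitors and 3 genes of the R-spondin axis, out of 21853 protein-coding genes. The genes were chosen by family and pathway role, not by a measured value. A gene counted as accessible in a library when a called peak overlapped the 1000 bp on either side of any of its protein-coding transcription start sites (TSSs), and such a peak is called a TSS peak below.

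The data were ATAC-seq peak lists, which mark the places where a transposase could cut open chromatin. They came from skeletal stem and progenitor cells (SSPCs) of the tibia and femur marrow of untreated C57BL/6 mice, cultured on plastic to passage 1, with 3 libraries from young and 3 from middle-aged animals. The labels give neither an age in months nor a sex, and no allele, transgene or agent was applied to either group. Marrow was plated directly, with no sort described, and a comparison of the groups asks how accessibility differed with age.

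Wnt proteins are secreted, lipid-modified ligands that bind a Frizzled receptor together with Lrp5 or Lrp6. When no ligand is bound, a complex of Axin, Apc and Gsk3b marks β-catenin (Ctnnb1) for destruction. Ligand binding recruits Dishevelled (Dvl), stops that destruction and lets β-catenin act with TCF/LEF factors in the nucleus. In bone, this signal favours osteoblast formation over fat formation, and sclerostin (Sost), the Dkk and Sfrp proteins and Wif1 restrain it. R-spondins, acting through Lgr receptors, keep Frizzled receptors on the surface.

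The lists held 27628 to 48344 peaks per library, and the shortest belonged to young 3. The number of sequenced reads is not given in the lists. The background recovered from them lay between 1.65 reads per base in young 3 and 3.75 in young 1, and the lowest called summit was covered by 8 reads in young 3 and by 13 in young 1, so the absence of a peak is not evidence of closed chromatin and the limit differed between libraries. Peak strength is given below as a rank, the percentile of a gene's best TSS peak in the library's own list by −log10 q, where 100 is the best peak.

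The labelled cell type was checked against markers in the same way. Of 8 SSPC markers, 6, 4 and 2 had a TSS peak in the young libraries and 4, 5 and 6 in the middle-aged libraries. Lepr and Prrx1 had none in any library. Cxcl12 had a TSS peak in 2 young and 2 middle-aged libraries, and Kitl and Ebf3 in all 6. Of 10 macrophage and other blood markers, 9, 10 and 10 had a TSS peak in the young libraries and 9 in each middle-aged library. The same 9 were called in all 6, the leukocyte antigen gene Ptprc among them at ranks of 52.7 to 67.5. Osteoblast markers were called at 2 to 5 of 8, endothelial markers at 2 to 5 of 8 and adipocyte markers at 3 or 4 of 6. A larger share of the blood markers than of the SSPC markers was thus called in every library, and their part in the results below was not tested. In bulk libraries fewer cells of a type and less accessible chromatin per cell cannot be told apart.

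4 accessible promoter stretches are shown, because they carry the contrasts described below: a ligand called in every library (Wnt9a), the ligand called in all 3 middle-aged and no young libraries (Wnt11), a strong receptor promoter (Fzd4), and a transcription factor called more often in middle-aged libraries (Tcf7). Each is the window around the summit of the best peak, shortened where it would have entered an untranslated region, read from the RefSeq GRCm38.p6 (mm10) genome on the strand of the gene. They are Wnt9a at chr11:59306656-59306927 (plus strand), Wnt11 at chr7:98837917-98838216 (plus), Fzd4 at chr7:89404143-89404354 (plus) and Tcf7 at chr11:52283232-52283531 (minus). Capitals mark 1 match to the RBPJ motif GTGGGAA on the opposite strand in Wnt9a and 1 match to the TCF/LEF motif CTTTGAT in Tcf7. The Wnt11 and Fzd4 stretches held none of the motifs searched.
Wnt9a: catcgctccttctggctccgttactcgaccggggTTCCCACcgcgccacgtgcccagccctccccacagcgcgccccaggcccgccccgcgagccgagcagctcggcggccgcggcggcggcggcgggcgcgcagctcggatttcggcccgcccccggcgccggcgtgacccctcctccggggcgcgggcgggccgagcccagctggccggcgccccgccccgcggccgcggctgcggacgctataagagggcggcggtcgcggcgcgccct
Wnt11: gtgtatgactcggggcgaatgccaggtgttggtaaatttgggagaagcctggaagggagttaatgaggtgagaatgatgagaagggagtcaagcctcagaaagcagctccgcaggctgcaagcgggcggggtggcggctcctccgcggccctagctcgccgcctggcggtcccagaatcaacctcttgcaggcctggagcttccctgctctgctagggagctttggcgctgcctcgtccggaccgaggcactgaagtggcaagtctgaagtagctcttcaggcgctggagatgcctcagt
Fzd4: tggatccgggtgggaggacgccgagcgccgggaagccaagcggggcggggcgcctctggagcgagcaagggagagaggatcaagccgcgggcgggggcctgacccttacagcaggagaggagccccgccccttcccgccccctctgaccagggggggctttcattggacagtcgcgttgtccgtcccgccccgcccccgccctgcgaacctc
Tcf7: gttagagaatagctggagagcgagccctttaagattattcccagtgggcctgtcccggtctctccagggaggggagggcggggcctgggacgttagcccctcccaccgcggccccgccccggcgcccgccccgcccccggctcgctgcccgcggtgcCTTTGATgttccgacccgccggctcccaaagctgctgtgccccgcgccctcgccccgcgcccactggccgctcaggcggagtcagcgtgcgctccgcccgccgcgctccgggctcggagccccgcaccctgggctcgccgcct

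Base composition varied among these stretches, with the Fzd4 and Tcf7 windows close in G and C content. The Wnt9a window was 82% G or C with 50 CpG sites in 272 bases, and the Fzd4 window was 73.1% with 21 in 212. The Tcf7 window was 75% with 36 in 300, and the Wnt11 window 60.7% with 16 in 300.

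Ligands were called less often than Frizzled receptors and intracellular parts in each library, a difference in counts that was not tested. A TSS peak in all 6 libraries was found at 6 of 10 Frizzled receptors, 7 of 10 intracellular parts, 1 of 2 co-receptors, 2 of 8 inhibitors, 1 of 3 genes of the R-spondin axis and 1 of 19 ligands. In sum this was 18 of the 52 genes (34.6%), against 48.4% of all protein-coding genes. No library had a peak at 14 of the 52 (26.9%), against 38.5% of all genes. The remaining 20 were called in some libraries, and 7 of these were missing from young 3 alone.

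**Figure D1:**
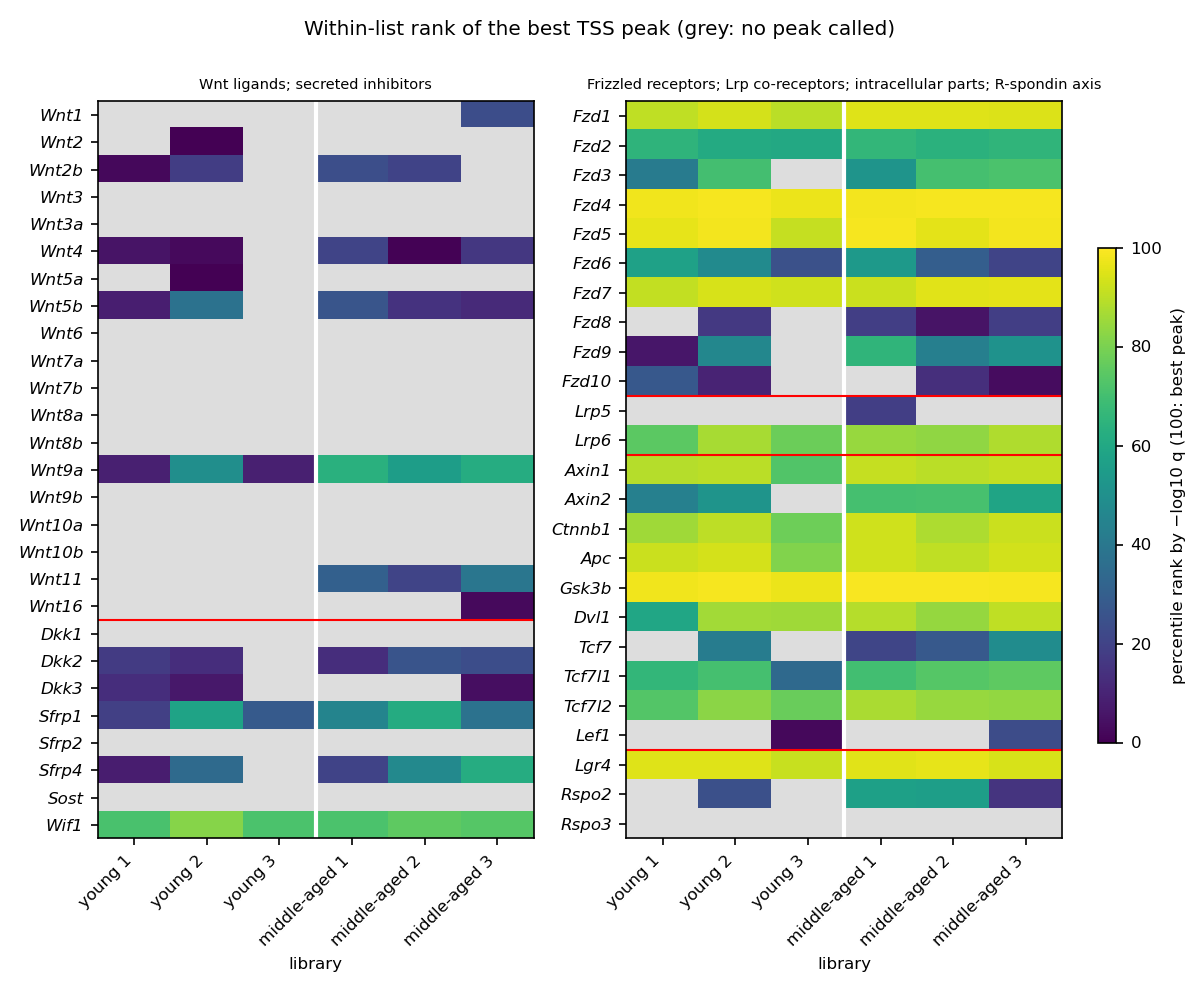
Heat map of the 52 genes (rows) in the 6 libraries (columns). Colour is the percentile rank of the gene's best TSS peak within the library's own list by −log10 q, where 100 is the best peak, and grey means no peak called; red lines separate the roles in the order of each panel's title and the white line the ages. Wnt ligands are mostly grey, while Gsk3b, Fzd4 and Fzd5 stay above 90 in each library.

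Counted per library, a TSS peak was found at 28, 33 and 19 of the 52 genes in the young libraries and at 31, 31 and 34 in the middle-aged libraries. The young libraries averaged 26.7 ± 7.10 (SD, n = 3) and the middle-aged 32 ± 1.73 (SD, n = 3), a difference of 5.33 genes. The groups overlapped, since young 2 exceeded 2 of the middle-aged libraries, and without young 3 the difference was 1.5 genes. As percentages the means were 51.3% and 61.5% of the 52 genes, beside 53.6% and 57.6% of all protein-coding genes.

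Wnt ligands are the signals themselves, and they were the least accessible class. A TSS peak was called at 4, 6 and 1 of the 19 ligands in the young libraries and at 5, 5 and 6 in the middle-aged libraries. There was none in any library at Wnt3, Wnt3a, Wnt6, Wnt7a, Wnt7b, Wnt8a, Wnt8b, Wnt9b, Wnt10a and Wnt10b. This set includes Wnt3a, the ligand most often used to switch on β-catenin in culture, and Wnt10b, a ligand known to favour bone over fat. A region 1.97 kb from the Wnt10b TSS was called in young 2 (13.1) and in each middle-aged library (36.8, 19.5 and 29.4). The state of Wnt10b thus turned on the width of the window. Wnt1, Wnt2, Wnt5a and Wnt16 were each called in 1 library, at ranks of 23.7 (middle-aged 3), 0.4 (young 2), 0.2 (young 2) and 2.5 (middle-aged 3).

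Wnt9a, a ligand active in joints and cartilage, was the 1 ligand with a TSS peak in all 6 libraries. Its rank was 8.7, 49.6 and 8.7 in the young libraries and 63.5, 55.5 and 61.9 in the middle-aged libraries. Every middle-aged value lay above every young value, with young 2 close below the lowest of them. The means were 22.3 ± 23.6 and 60.3 ± 4.22 (SD, n = 3 each), a difference of 38.0 points. The exact two-sided permutation p was 0.1, the smallest that 3 against 3 libraries can give, and limma over all 10569 genes called in every library, on ranks centred on each library's median, gave a difference of 32.3 points relative to all genes with an adjusted p of 0.296. The peak itself was covered by 20, 29 and 14 reads at its summit in the young libraries and by 32, 29 and 36 in the middle-aged libraries. Divided by each library's background, that was 5.33-, 10.2- and 8.50-fold against 12.6-, 12.1- and 12.9-fold, again without overlap. Relative to all genes, the difference in log2 height was 0.205 (limma adjusted p = 0.858). Ranked only among the 10569 genes fitted, the difference was 5.07 points (limma adjusted p = 0.804).

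Wnt11, a ligand of the β-catenin-independent branch, had a TSS peak in each middle-aged library and in no young library. The ranks were 30.7, 20.5 and 39.3, from summits of 20, 18 and 25 reads. The summits lay 743 to 779 bp upstream of the TSS at position 98838845, so the gene was no longer called with a window of 500 bp on either side. They also lay inside the annotated gene, which starts at 98835112. These are weak peaks, in the lower part of each list.

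Wnt2b, Wnt4 and Wnt5b were called at both ages but at low ranks. Wnt4, which is known to promote bone formation, had ranks of 5.3 and 2.5 in young 1 and young 2 and of 20.4, 0.4 and 16.4 in the middle-aged libraries. Wnt5b, another ligand of the β-catenin-independent branch, had 8.5 and 37.7 against 26.2, 14.7 and 11.9, but these came from separate promoters, near the TSS at 119544318 in young 1 and middle-aged 2 and near that at 119467211 in young 2 and middle-aged 1 and 3. Wnt2b had 2.2 and 18.3 in young 1 and young 2 and 24.0 and 20.02 in middle-aged 1 and 2. None of the 3 was called in young 3. The ranks of both ages overlapped for Wnt4 and Wnt5b, and for Wnt2b both middle-aged ranks lay above both young ranks.

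Several ligands sit side by side in the genome. Wnt6 and Wnt10a lie 6.19 kb apart on chromosome 1, Wnt3a and Wnt9a 16.2 kb apart on chromosome 11, Wnt9b and Wnt3 24.3 kb apart on chromosome 11, and Wnt10b and Wnt1 11.7 kb apart on chromosome 15. Within these pairs Wnt9a was called in all 6 libraries and Wnt3a in none, Wnt1 in 1 and Wnt10b in none, and both ligands of the other pairs in none. No TSS window of the 52 genes overlapped that of another protein-coding gene.

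Frizzled receptors bind the ligands, and each of the 10 was called in 1 or more libraries. The count was 9, 10 and 6 of 10 in the young libraries and 9, 10 and 10 in the middle-aged libraries. Fzd1, Fzd2, Fzd4, Fzd5, Fzd6 and Fzd7 were called in all 6. Young 3 had the fewest of them.

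Fzd4, the receptor for norrin as well as Wnts, ranked 97.7, 98.8 and 97.2 in the young libraries and 98.1, 98.8 and 98.5 in the middle-aged libraries. Fzd5, a further β-catenin-linked receptor, ranked 96.2, 98.2 and 91.3 against 98.6, 96.1 and 98.1. Both were among the 3 highest mean ranks of the 18 genes called in every library, at 98.2 and 96.4, and in both the ages overlapped.

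Fzd1 had ranks of 90.5, 93.6 and 89.6 in the young libraries and 95.2, 95.0 and 94.5 in the middle-aged libraries. The ages did not overlap, and the means were 91.2 ± 2.07 and 94.9 ± 0.322 (SD, n = 3 each), a difference of 3.66 points. Relative to all genes, that is with ranks centred on each library's median, the difference turned to −1.99 (limma adjusted p = 0.582), and uncentred it had a limma adjusted p of 0.312. Its summit was covered by 89, 106 and 52 reads in the young libraries and by 118, 120 and 120 in the middle-aged libraries. Fzd6, known for planar cell polarity, went the other way in its means, with ranks of 57.1, 47.8 and 24.8 against 53.9, 29.7 and 20.6. Its ages overlapped (mean difference −8.52 points, limma adjusted p = 0.630 uncentred and 0.460 for −14.2 points relative to all genes), and with a mean of 39.0 it was the lowest of the 18.

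Fzd7 ranked 90.7 to 94.1 in the young libraries and 91.9 to 95.9 in the middle-aged libraries, and Fzd2 60.5 to 64.9 against 64.0 to 66.4. Fzd3, which acts in axon guidance and planar polarity, was missing from young 3 and ranked 41.7 and 70.0 in the other young libraries and 51.8, 70.5 and 71.8 in the middle-aged libraries. Fzd9, a receptor known from osteoblasts, was likewise missing from young 3, with 6.1 and 46.1 against 65.6, 43.0 and 51.0. For these 4 receptors the ages overlapped.

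Fzd8 and Fzd10 were the weakest receptors. Fzd8 was called in young 2 alone among the young libraries, at a rank of 16.8, and in each middle-aged library, at 18.4, 5.2 and 18.6. Fzd10 was called in young 1 (27.6) and young 2 (9.8) and in middle-aged 2 (13.4) and 3 (3.4).

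The co-receptors Lrp5 and Lrp6, which Wnts engage together with Frizzled, differed from each other. Lrp6 was called in every library, at 74.7, 87.0 and 77.6 in the young and 84.6, 83.3 and 87.9 in the middle-aged libraries. Lrp5, whose loss weakens bone, had a TSS peak in middle-aged 1 alone, at 18.6. A peak 1.03 kb from the Lrp5 TSS, just outside the window, was present in all 6 libraries, at 47.0, 64.8 and 14.0 against 50.8, 68.7 and 64.7, so the state of Lrp5 turned on the width of the window.

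**Figure D2:**
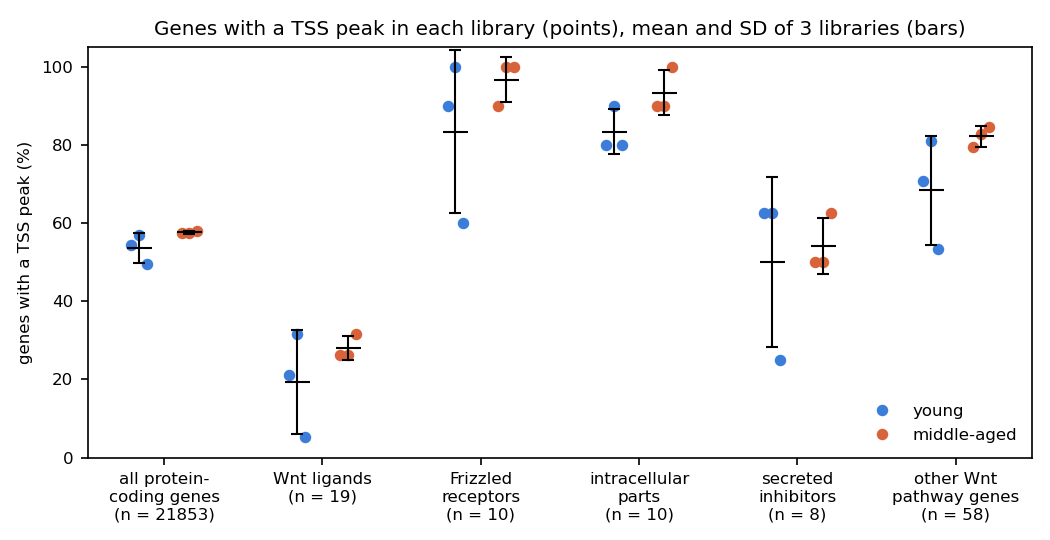
Share of genes with a TSS peak (vertical axis, percent) in each library, by class (horizontal axis). Blue points are young and orange points middle-aged libraries, and black bars are the mean and SD of 3 libraries. Ligands lie between 5.26% and 31.6%, below all protein-coding genes, and Frizzled receptors between 60% and 100%.

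The intracellular parts carry the signal to the nucleus, and 8, 9 and 8 of the 10 had a TSS peak in the young libraries and 9, 9 and 10 in the middle-aged libraries. 7 were called in all 6. Gsk3b, the kinase that marks β-catenin, had the highest mean rank of the 18 (98.4), with 97.9, 98.8 and 97.1 in the young and 99.0, 98.9 and 98.6 in the middle-aged libraries. Apc and β-catenin itself (Ctnnb1) ranked 80.9 to 93.6 and 77.9 to 92.8 over the 6 libraries, and young 3 was the lowest library for both.

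Axin1, the scaffold of the destruction complex, had ranks of 88.7, 89.5 and 73.0 in the young libraries and 91.4, 89.5 and 90.6 in the middle-aged libraries. The ages did not overlap, although young 2 and middle-aged 2 were equal to the first decimal, and the means were 83.7 ± 9.27 and 90.5 ± 0.909 (SD, n = 3 each; 1.13 points higher relative to all genes, limma adjusted p = 0.807). Tcf7l2, a TCF factor of many tissues, had 73.2, 82.6 and 77.0 against 87.3, 84.4 and 83.9. Its ages did not overlap either, with means of 77.6 ± 4.77 and 85.2 ± 1.85 (SD, n = 3 each; 1.94 points higher relative to all genes, limma adjusted p = 0.734). Read cover at the Tcf7l2 summit was 50, 60 and 36 reads in the young and 77, 64 and 66 in the middle-aged libraries.

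Axin2 is both a brake on the pathway and its best known transcriptional target. It was called in young 1 and young 2 at 43.7 and 51.6 and in the middle-aged libraries at 70.4, 70.9 and 58.3, and not in young 3. Among the libraries that called it, every middle-aged rank lay above every young one, but it could not be fitted without a value in young 3.

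Of the TCF/LEF factors, Tcf7l1 and Tcf7l2 were called in all 6 libraries and Tcf7 and Lef1 were not. Tcf7, best known from T cells, was called in young 2 (42.1) and in each middle-aged library (20.8, 27.8 and 48.7), with summits of 23 reads against 17, 18 and 24. Lef1 was called in young 3 (2.3, near the TSS at 131112797) and middle-aged 3 (23.4, near that at 131110471). The young 3 peak at Lef1 was covered by 11 reads, fewer than the 13 of the lowest peak called in young 1. Dvl1, a Dishevelled, ranked 59.2, 86.1 and 85.6 against 88.7, 84.1 and 90.5, and Tcf7l1 66.2, 70.6 and 34.0 against 69.5, 73.6 and 75.0, both with overlap.

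Secreted inhibitors were split. Sfrp1 and Wif1, which bind Wnts outside the cell, were called in all 6 libraries, and Dkk1, Sfrp2 and Sost in none. The count was 5, 5 and 2 of the 8 inhibitors in the young libraries and 4, 4 and 5 in the middle-aged libraries. Sost encodes sclerostin, a product of osteocytes.

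Wif1 ranked 71.2, 81.7 and 71.8 in the young libraries and 71.8, 75.3 and 73.5 in the middle-aged libraries. These values came from separate peaks. The summit lay 481 bp upstream of the TSS in young 3, 451 bp upstream in middle-aged 2, and at most 29 bp from a TSS elsewhere. Sfrp1 was among the 3 lowest mean ranks of the 18 (41.6, with Wnt9a at 41.3), with 18.9, 58.0 and 28.2 against 45.3, 61.6 and 37.7. The ages overlapped for both, with differences relative to all genes of −7.04 points for Wif1 (limma adjusted p = 0.371) and 7.50 points for Sfrp1 (limma adjusted p = 0.709). Sfrp4, a further Wnt-binding inhibitor, had 8.1 and 34.7 in young 1 and young 2 and 20.2, 47.1 and 62.0 in the middle-aged libraries. These peaks overlapped one another, with summits from 19624248 to 19624322, between the TSSs at 19623813 and 19624755.

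Dkk2 and Dkk3 belong to the Dickkopf family, whose members Dkk1 and Dkk2 bind Lrp5 and Lrp6. Dkk2 ranked 17.3 and 13.0 in young 1 and young 2 against 13.0, 26.0 and 23.8. Its summits lay 1045 to 1062 bp upstream of the TSS, so only the edges of these peaks entered the window. Dkk3 was called in young 1 (13.2), young 2 (6.6) and middle-aged 3 (3.8). A region 1.74 kb from the Sfrp2 TSS was called in 1 young and 3 middle-aged libraries, at 18.7 against 3.7, 31.1 and 37.6.

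In the R-spondin axis, the receptor Lgr4 was called in all 6 libraries, at 91.7 to 95.2 in the young and 94.1 to 96.3 in the middle-aged libraries. The secreted agonist Rspo2 was called in young 2 (24.6) and in each middle-aged library (57.0, 56.1 and 14.99), and the agonist Rspo3 in none. The Rspo2 summits were covered by 18 reads in young 2 and by 27, 25 and 17 in the middle-aged libraries, so middle-aged 3 did not stand above young 2.

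**Figure D3:**
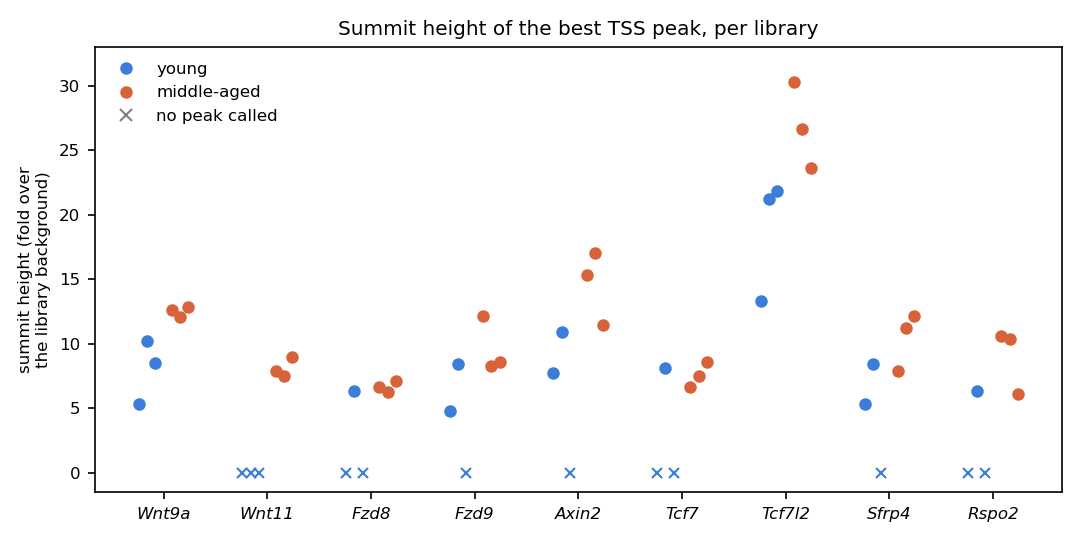
Summit height of the best TSS peak (vertical axis), as the reads covering the summit divided by the library's background, for 9 genes (horizontal axis) in the young (blue) and middle-aged (orange) libraries. Crosses mark libraries with no called peak and are drawn at 0 as a mark, not as a measured 0. Wnt9a lies between 5.33 and 10.2 in the young and between 12.1 and 12.9 in the middle-aged libraries. Heights are not centred on all genes.

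By presence, 4 of the 52 genes were called in at least 2 more middle-aged than young libraries: Wnt11, Fzd8, Tcf7 and Rspo2. This was 7.69% of the genes, beside 2.78% of all protein-coding genes. Only genes called in some but not all libraries can differ in this way. Among those it was 4 of 20, beside 607 of 2878 over all protein-coding genes. In the other direction 0 of the 52 differed by as much, beside 0.11% of all genes. The 4 genes do not form 1 role, being a ligand, a receptor, a transcription factor and an agonist. Without young 1 or without young 3 the same threshold on the share of libraries left Wnt11 alone, since young 2 then made up 1 of the 2 remaining young libraries. With every list cut to 27628 peaks, the length of the shortest, 3 genes passed, namely Fzd9, Sfrp4 and Rspo2, so Wnt11, Fzd8 and Tcf7 lost the call. With peaks of −log10 q 5 or more, 8 passed and Fzd8 was not among them.

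By rank, the 18 genes called in every library could be compared. 4 of them (22.2%) had every middle-aged rank above every young rank, namely Wnt9a, Fzd1, Axin1 and Tcf7l2, beside 30.6% of all genes called in every library. None (0 of 18) had every middle-aged rank below, beside 0.274%. The mean rank was higher in middle-aged libraries for 16 of the 18, Fzd6 and Wif1 being the exceptions, and for 9927 of all 10569 genes. The median difference was 3.48 points for the 18 and 4.97 points for all genes. When ranks were taken among the 10569 genes alone, 9 of the 18 and 5254 of all 10569 were higher in middle-aged libraries.

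No gene of the group passed limma's test on the centred ranks after adjustment over all genes (0 of 18, and 0 of all 10569, or 0%). Adjusted p for the 18 ran from 0.296 to 0.981. At an unadjusted p under 0.05 there was 1 of the 18, Wnt9a, and 1462 of all 10569. With 3 libraries a group the test measures the spread between these cultures.

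The other genes of the pathway were read from a list of 58, which holds the secretion factors Wls and Porcn, further receptors, kinases, β-catenin partners and planar polarity genes. A TSS peak was called at 41, 47 and 31 of the 58 in the young libraries and at 46, 48 and 49 in the middle-aged libraries. 29 (50%) were called in all 6 libraries and 8 (13.8%) in none, beside 48.4% and 38.5% of all protein-coding genes. Of the 58, 21 were called in some but not all libraries, the only genes that can differ by presence. Among all such protein-coding genes, 607 of 2878 were called in at least 2 more middle-aged than young libraries. 6 of the 58 (6 of the 21) were called in at least 2 more middle-aged libraries, beside 2.78% of all protein-coding genes. They were Notum, an enzyme that inactivates Wnts, the Wnt receptors and co-receptors Ror2 and Ptk7, the formin Daam2, the cadherin Celsr2 and the receptor Tnfrsf19. Notum was called in 0 young and 2 middle-aged libraries, Tnfrsf19 in 0 and 3, and the other 4 in young 2 and all 3 middle-aged libraries. None of the 29 had an adjusted p under 0.05 by limma, and 0 of the 58 were called in 2 more young libraries, beside 0.11% of all genes.

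CpG-rich promoters are open in most cell types, so the classes were also set beside promoters of the same kind. A promoter was counted as CpG-rich when the observed over expected CpG ratio in 1000 bp around a TSS was at least 0.6 and the G and C content at least 50%. Of all 10891 genes with such a promoter, 78.9% were called in all 6 libraries and 7.24% in none. Of the 42 CpG-rich promoters of the Wnt group, 42.9% were called in all 6 and 21.4% in none.

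The ligands were the lowest of the classes. Of their 14 CpG-rich promoters, 1 (7.14%) was called in all 6 libraries and 7 (50%) in none. Wnt7b had a CpG ratio of 0.890 and Wnt7a of 0.815, near those of Fzd1 (0.914) and Fzd5 (0.800), yet neither ligand had a TSS peak in any library. Frizzled receptors and intracellular parts had 10 CpG-rich promoters each, of which 6 and 7 were called in all 6 and none lacked a peak in every library. The 10 genes of the group without a CpG-rich promoter were called in all 6 libraries in 0 cases and in no library in 5, beside 18.0% and 69.5% of all such genes.

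**Figure D4:**
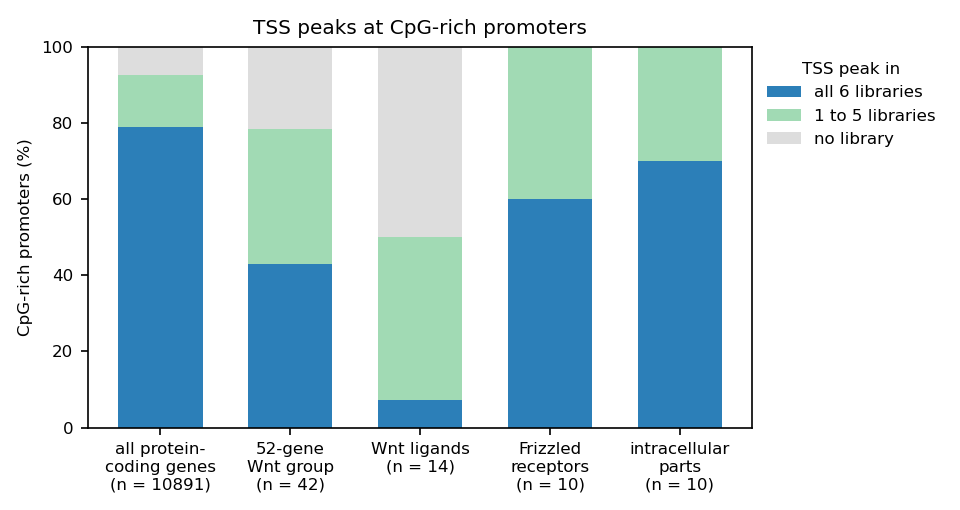
CpG-rich promoters (stacked bars, percent of each class) by the number of libraries with a TSS peak: all 6 (blue), 1 to 5 (green) or none (grey). All protein-coding genes reach 78.9% in blue, the 52-gene group 42.9% and the ligands 7.14%.

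Letters of 4 binding motifs were searched on both strands in 300 bp around the best summit of the 38 genes with a peak in some library. The TCF/LEF letters CTTTGAT or CTTTGAA were found at 3 of the 38, Axin2, Tcf7 and Dkk3, beside 4.07% of all 13447 genes with a TSS peak. The RBPJ letters GTGGGAA were found at Wnt9a, Tcf7l1, Lef1 and Sfrp4, beside 5.37%. The EBF core CCCNNGGG was found at 6, beside 19.8%. These are matches of letters, not measured binding.

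Outside promoters, all peaks were merged into 63840 regions, of which 47721 lay away from every protein-coding TSS window, and each was given to the gene with the nearest TSS, which does not establish a link. The 52 genes held 225 such distal regions, 59 inside the gene and 166 outside it. A peak was called at 106, 126 and 79 of the 225 in the young libraries and at 154, 146 and 156 in the middle-aged libraries, so the ages did not overlap. For all distal regions the counts were 22258, 29238 and 15439 against 31513, 31794 and 33134, which did not overlap either. The median gene of the group had 3 distal regions and the median protein-coding gene 1.

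Of the 225, 59 (26.2%) were called in all 6 libraries, beside 25.2% of all distal regions. 9 (4%) were called in the 3 middle-aged libraries and in no young library, beside 2.6% of all, and 0 in the young libraries alone, beside 0.044%. The 9 were nearest to Fzd1 (2 regions), Fzd5, Ctnnb1, Tcf7l2, Dkk2, Sfrp1, Sfrp2 and Rspo3. None of the 66 regions nearest to a ligand was among them. The best ranked of the 9, 19.9 kb from Fzd5 at chr1:64717504-64717856, had ranks of 57.9, 23.9 and 36.1, and that inside Rspo3 at chr10:29532908-29533302 had 1.8, 31.2 and 1.7.

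Some ligands without a TSS peak had regions near them that were called in all 6 libraries. Wnt6 had no TSS peak, but a region inside the gene, 1.20 kb from its TSS at chr1:74773094-74773478, was called in all 6 libraries, at 55.2, 59.0 and 42.6 in the young and 59.1, 70.5 and 71.6 in the middle-aged libraries. A region 51.8 kb from Wnt7b (chr15:85634306-85635198) ranked 98.5 to 99.0 in the young and 99.5 to 99.6 in the middle-aged libraries. A region 29.4 kb from Wnt7a (chr6:91440756-91441437) ranked 79.3 to 89.4 against 80.7 to 89.1. The Wnt6 and Wnt7b regions did not overlap between ages and the Wnt7a region did. For Wnt6 this rested on 58.97 in young 2 against 59.05 in middle-aged 1. These regions were picked after their values were seen, and the share of all distal regions without such overlap was not counted. Relative to all regions called in every library, the middle-aged minus young difference was 5.92 points for Wnt6, −8.11 for Wnt7b and −7.86 for Wnt7a. The limma adjusted p was 0.732, 0.381 and 0.381.

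Genes with a TSS peak also had distal regions called in all 6 libraries. The region nearest to Axin2 at chr11:109011547-109012166, 88.4 kb away, had the highest mean rank of the 59 (99.8) and lay between 99.37 and 99.99 in every library. Tcf7l2 had the most distal regions of the 52 genes (22, of which 10 in all 6 libraries), followed by Dkk2 (17, 7) and Fzd1 (12, 5). One of those at Dkk2, inside the gene, ranked 78.4, 86.1 and 81.3 in the young and 84.1, 78.2 and 83.3 in the middle-aged libraries. By limma on the ranks of the 12031 distal regions called in every library, 0 of the 59 and 0 of all (0%) passed at an adjusted p under 0.05, while 4 of the 59 and 1350 of the 12031 had an unadjusted p under 0.05.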

How the data were processed

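ATAC-seq of 3 young and 3 middle-aged SSPC cultures was deposited as 1 narrowPeak list per library. The authors made base calls with bcl2fastq, mapped reads to mm10 with Bowtie2, removed duplicates with Sambamba and called peaks with MACS per library. A transposase shift and the MACS version are not given in the sources used here, and the record lists the library source as transcriptomic. The deposited columns hold a score, fold enrichment (a ratio) over background, and −log10 p-value and −log10 q-value at the summit. Their differential test needs reads and was not repeated.

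Peaks were joined to protein-coding TSSs of GENCODE vM21 (1000 bp either side). A gene took its best peak, ranked from 0 to 100 within the list by −log10 q. Reads at the summit and the library background were solved from fold enrichment and p-value under a Poisson model, for 100% of peaks within 0.01 on the −log10 scale. Ranks of the 10569 genes called in all 6 libraries were centred on each library's median and tested with limma 3.58.1 (R 4.3.3), Benjamini-Hochberg adjusted over all of them. The library medians used for centring averaged 5.65 points higher in middle-aged libraries, and a gene near the top of the list cannot move by that much, so uncentred ranks are printed, with the centred difference beside each p. The fit was tested on simulated data. Exact permutation tests (20 assignments, two-sided) cannot go below 0.1. Distal regions were unions of overlapping peaks. Sequences are from RefSeq GRCm38.p6.

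The 52 genes, the list of 58, the markers and the tests were chosen with earlier results of these data known. Named in full were genes differing by 2 or more libraries, genes without rank overlap or with an adjusted p under 0.05, and the 3 highest and 3 lowest mean ranks; the other named genes and regions were picked after their values were seen. Other settings tried were peaks with −log10 q above or at 5, lists cut to 27628 peaks, windows of 500 bp and 2 kb, the summit inside the window, other scales, a replicate block and leaving out each library. Height over background was an alternative added after seeing the data. Replicates are separate libraries, from at least 3 mice per assay by the labels, and p-values measure the spread between them.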

Additional observations from a re-analysis of the deposited data

How the results depend on the processing

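With a −log10 q of at least 5, 8 genes were called in at least 2 more middle-aged libraries, 2 had higher ranks without overlap, and 4 distal regions were specific to middle-aged libraries. With lists cut to equal length, 3 genes were called in at least 2 more middle-aged libraries (Fzd9, Sfrp4 and Rspo2, of which Rspo2 was among the 4 reported), 1 gene (Fzd6) was called more in young libraries, 1 gene (Fzd1) had higher and 1 (Wif1) lower ranks without overlap, and 0 distal regions were specific to middle-aged libraries. These settings hold fewer peaks. A window of 2 kb on either side gave 21 genes called in all 6 libraries. It gave 6 genes called in at least 2 more middle-aged libraries, Wnt10b and Sfrp2 joining the 4 reported. Higher ranks without overlap were found at 5 genes, Wnt6 joining the 4, and the median rank difference relative to all genes was −0.274 points. The median rank difference of the 18 genes relative to all genes, −2.17 points, turned to 0.00458 on the log2 scale of height over background, to 0.0568 points with ranks among the genes fitted and to 3.48 points without centring. Leaving out 1 library at a time gave 1 to 4 genes called more in middle-aged libraries. It gave 0 to 1 called more in young (Dkk3, without young 3 or middle-aged 3). Middle-aged libraries had 4.33 to 8.5 more genes, except 1.5 without young 3. Higher ranks without overlap were found at 5 to 11 genes (11 without young 2). Distal regions specific to middle-aged numbered 10 to 18 (18 without young 2, 15 without middle-aged 1). Those specific to young numbered 0 to 1 (without young 3 or middle-aged 1). Shared distal regions with a lower rank in middle-aged at a limma adjusted p under 0.05 numbered 0 to 2 (2 without young 2). Genes called in all 6 numbered 25 without young 3.

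Same-numbered libraries did not deviate together (r = 0.00508, −0.0359 and −0.0687 over 10569 genes), so these ranks showed no pairing by number. With 3 libraries a group this cannot tell whether same-numbered cultures were handled together. A replicate block left the difference at 5.33 genes, the median at −2.17 points and the calls at 0. Of 284 values of single genes under 16 alternatives, 0 had an adjusted p under 0.05 (lowest 0.0639). A gene with weak peaks can fall under a library's calling limit, and depth is unknown.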
